A study of Arabidopsis thaliana with 4 samples.

Results

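The alpha- and beta-tubulin genes of Arabidopsis thaliana were followed in seeds kept for 96 h in darkness at 4 °C or at 22 °C. A gene belonged to the group when the platform annotation paired a probe set with it alone and gave it a symbol of TUA or TUB and a number. This gave 7 genes of the 13356 that had a single-gene probe set, the alpha-tubulins TUA1 and TUA6 and the beta-tubulins TUB1, TUB5, TUB6, TUB7 and TUB9. The RefSeq gene table lists 6 TUA and 9 TUB genes, 15 in all, and the other 8 were not analysed here. Each of the 7 had 1 such probe set, and all passed the filter on low signal, together with 15847 of 22746 probe sets. The rule uses signal only to choose between several probe sets of a gene, which none of the 7 had.

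All seeds were of the Ler-0 (Landsberg erecta) accession, stock NW20. They were labelled as dry seeds and incubated in the dark, at 4 °C in the first group and at 22 °C in the second, so that darkness and its length were shared. Biotin-labelled total RNA was measured on 4 Affymetrix arrays, 2 at each temperature, called replicates A and B. Whether A and B were separate seed lots is not given in the labels. The p-values therefore cover the spread between the arrays, and that spread may be technical.

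Alpha- and beta-tubulin form the dimer from which microtubules are built. In plant cells the cortical microtubules guide cellulose synthase in the plasma membrane and so set the direction of growth, and other arrays form the spindle and the phragmoplast that lays down the new wall between daughter cells. Many microtubules come apart in the cold. In tomato seeds beta-tubulin protein accumulates during germination, before the radicle emerges. Each class is encoded by several genes with very similar proteins, which differ in the organs where they are most active. TUA6 and TUB6 fused to a fluorescent protein are common markers of microtubules, and TUA1 and TUB9 are known for their expression in pollen.

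Signals below are MAS5 signals scaled to a trimmed mean of 500 on each array. The level of one probe set was not set against that of another. All arrays had equal trimmed means before scaling, while the median scaled signal ran from 135.5 to 203.7. In the same limma fit, 801 of 15847 probe sets, or 5.05%, differed between temperatures at an adjusted p under 0.05. The replicates at 22 °C differed from each other with an SD of 1.1 on the log2 scale over these probe sets, against 0.646 at 4 °C. Of 14 listed seed markers 2 were measured, with log2 fold changes of opposite sign. M10, a seed maturation gene, had 14071 and 15986 at 4 °C (A and B), against 13531 and 10788 at 22 °C (A and B), and the oleosin gene OLEO3 had 348.2 and 658.2 at 4 °C (A and B), against 1305 and 1838 at 22 °C (A and B). Neither passed the limma test (adjusted p = 0.659 and 0.103). In bulk seeds, fewer cells of a type and less RNA per cell cannot be told apart.

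Of the 5 beta-tubulin genes, TUB1, TUB5, TUB6 and TUB7 had lower mean signals at 4 °C than at 22 °C, and TUB1 passed the test. Mean signals of TUB9 and of the alpha gene TUA1 were higher at 4 °C, without passing. TUB1, a beta-tubulin gene known for its expression in roots, had a signal of 35.9 and 135.9 at 4 °C (A and B), against 663.4 and 5307 at 22 °C (A and B). The 22 °C arrays were both high and both 4 °C arrays low, so the groups did not overlap, although 22 °C B stood well above 22 °C A. Its log2 fold change, taken on signal + 32 as 4 °C minus 22 °C, was -4.17 with a 95% interval of -6.34 to -2.01 (SE 0.931, limma adjusted p = 0.0486). Only 0.467% of all probe sets had a lower value. The call was lost with a pseudocount of 100, with no filter, without the variance trend and with robust estimation. With 4 °C A dropped the log2 fold change became -3.52, and dropping 4 °C B made it -4.83. Leaving out 22 °C B gave -2.70 and leaving out 22 °C A gave -5.64. A lone array in a group takes its spread from the other pair, so only the fold change is given for such fits.

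TUB6 had a signal of 68.4 and 106.5 at 4 °C (A and B), against 374.6 and 2479 at 22 °C (A and B). As for TUB1, every 22 °C value lay above every 4 °C value and the 22 °C B array was the highest. The log2 fold change was -3.10 with a 95% interval of -4.97 to -1.23 (SE 0.804), and it missed the threshold (limma adjusted p = 0.0659). Without 22 °C B it was -1.79, and without 22 °C A it was -4.41. Dropping 4 °C A moved the fold change to -2.87, and dropping 4 °C B moved it to -3.33. It passed with a pseudocount of 0, a filter at 200 and scaling to equal medians.

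For TUB5 and TUB7 the size of the difference depended on the 22 °C array. TUB5 had 213.5 and 365.9 at 4 °C (A and B), against 364.1 and 4339 at 22 °C (A and B). Its 22 °C A signal lay just under the higher 4 °C signal, so the groups overlapped. TUB7 had 104.2 and 225.9 at 4 °C (A and B), against 200 and 1367 at 22 °C (A and B), with the same overlap. The log2 fold changes were -2.07 for TUB5 (95% interval -4.42 to 0.274, limma adjusted p = 0.246) and -1.60 for TUB7 (95% interval -3.52 to 0.312, adjusted p = 0.272). Leaving out 22 °C B gave -0.342 for TUB5 and -0.308 for TUB7. Leaving out 22 °C A gave -3.81 and -2.90.

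TUB9 had 2880 and 3755 at 4 °C (A and B), against 1214 and 3521 at 22 °C (A and B). It was low on 22 °C A, and the other 3 arrays lay close together. The log2 fold change was 0.658 with a 95% interval of -0.720 to 2.04 (limma adjusted p = 0.533), and it turned to -0.0975 when 22 °C A was left out. In contrast to the other beta genes, the signal of TUB9 on both 4 °C arrays was well above that on 22 °C A.

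**Figure D1:**
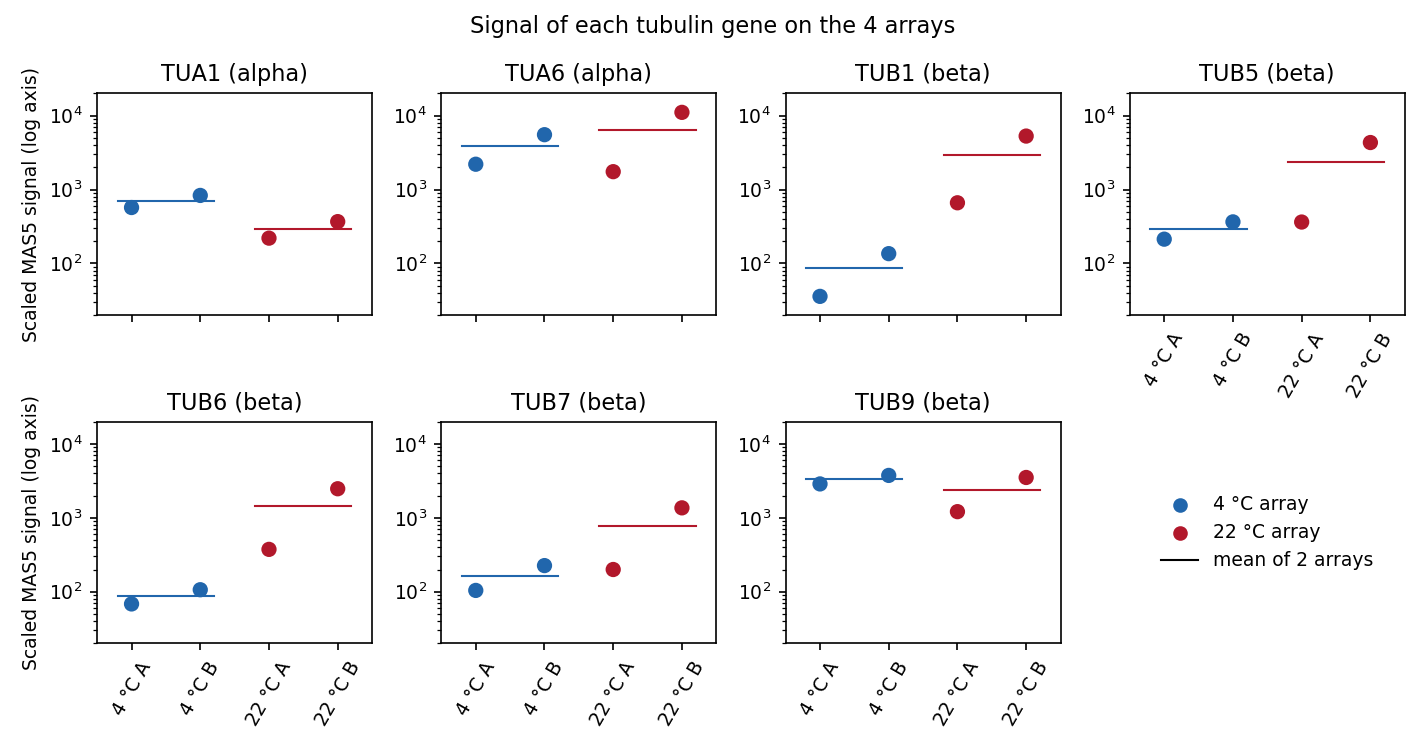
Scaled MAS5 signal (log axis) of each tubulin gene at 4 °C (A and B) (blue) and the 22 °C arrays A and B (red), with lines at the mean of 2 arrays. TUB1 and TUB6 are lower on both 4 °C arrays than on both 22 °C arrays, TUA1 is higher on both, and in all 7 genes replicate B lies above replicate A at each temperature.

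Among the alpha-tubulins, TUA6 had 2206 and 5541 at 4 °C (A and B), against 1750 and 11112 at 22 °C (A and B). Both 4 °C signals lay between the 22 °C signals. The log2 fold change was -0.335, and its 95% interval of -2.36 to 1.69 covers changes in either direction (limma adjusted p = 0.853). The sign depended on which arrays were used. Leaving out 22 °C B gave 0.987 and leaving out 4 °C A gave 0.323, but dropping 22 °C A gave -1.66, and dropping 4 °C B gave -0.993.

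TUA1 had 572.4 and 834.4 at 4 °C (A and B), against 220.4 and 368.9 at 22 °C (A and B). Here both 4 °C arrays were the high ones and the groups did not overlap. On average the 4 °C arrays gave 703.4 ± 185, against 294.6 ± 105 on the 22 °C arrays (SD, n = 2 each), a ratio of 2.39. The log2 fold change was 1.19 with a 95% interval of 0.0650 to 2.31 (SE 0.481), and it did not pass over all probe sets (limma adjusted p = 0.175, unadjusted p = 0.0407). With any 1 array left out it stayed between 0.852 and 1.52.

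Counted over the family, 1 of 7 genes was called lower at 4 °C, where 2.34% of all probe sets were, and 0 of 7 were called higher, where 2.71% were. At an unadjusted limma p under 0.05 there were 3 genes, TUB1 and TUB6 lower and TUA1 higher, against 25.6% of all probe sets in either direction. Both 4 °C arrays lay below both 22 °C arrays for 2 of 7 genes, against 31.4% of all probe sets, and above them for 1 of 7, against 25.7%. Neither of these last counts exceeds its background share. The median log2 fold change was -1.60 over the 7 genes and -0.125 over all probe sets.

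**Figure D2:**
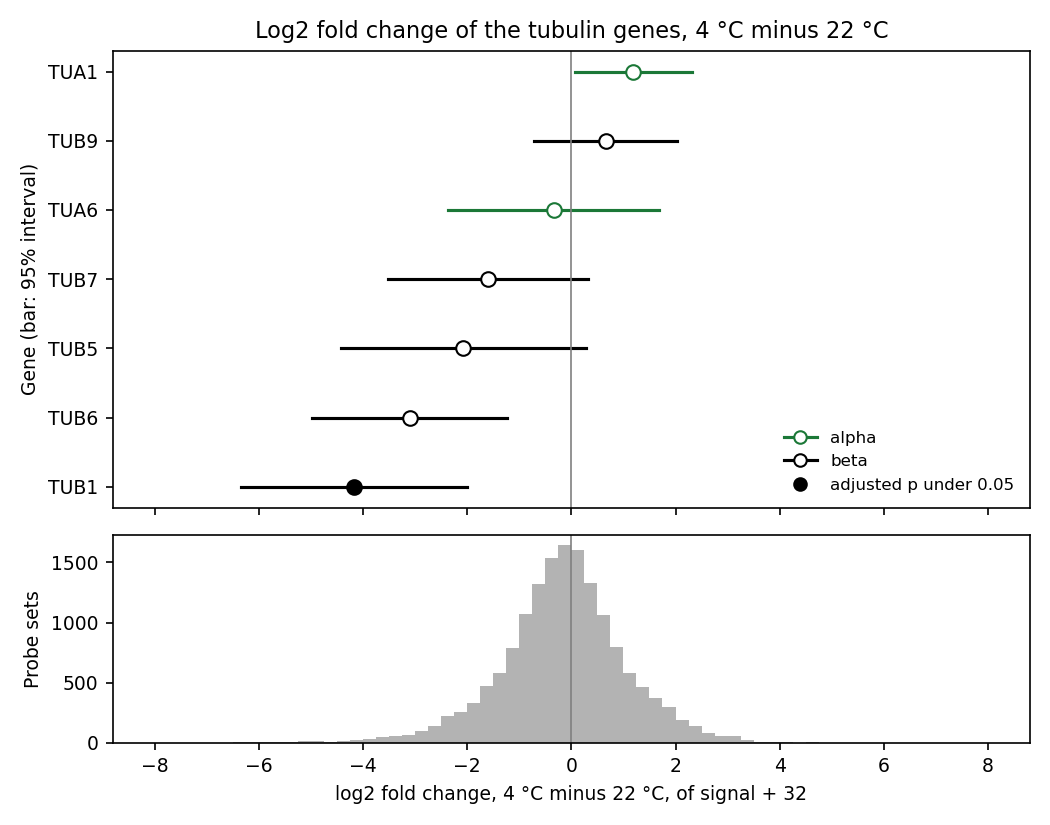
Log2 fold change of signal + 32, 4 °C minus 22 °C, of the 7 tubulin genes with 95% intervals (upper panel, filled where the adjusted p was under 0.05), above the distribution of the same value over 15847 probe sets (lower panel, number of probe sets). TUB1 at -4.17 lies in the lower tail and is the filled point, and TUA1 at 1.19 is the highest of the 7.

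For the 5 beta genes the median log2 fold change was -2.07, with a range of -4.17 to 0.658. The alpha genes TUA1 and TUA6 had 1.19 and -0.335, a median of 0.425. The ranges of the 2 classes overlap, since TUB9 lay above TUA6. The median of the beta genes less the median of the alpha genes was not tested, because the genes of a class are not replicates. Leaving out 22 °C B gave a beta median of -0.342, and leaving out 22 °C A gave -3.81. That of the alpha genes was 1.25 without 22 °C B, -0.403 without 22 °C A and -0.0335 without 4 °C B.

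TUA1 stood apart from the other 6 tubulins most on 22 °C B. With each gene's log2 signal centred on its mean over the 4 arrays, TUA1 less the median of the other 6 was 1.66 on 4 °C A and 1.37 on 4 °C B, against -0.332 on 22 °C A and -2.69 on 22 °C B. The 4 °C values were alike and above both 22 °C values, and the 22 °C values differed by more than the 4 °C values did. The mean difference, 4 °C minus 22 °C, was 3.02, with 1.84 when 22 °C B was left out and 4.20 when 22 °C A was. Arrays number 2 against 2, so an exact two-sided permutation test cannot go below p = 0.333, and no test was made.

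Set against single genes, TUA1 was higher relative to its partner on both 4 °C arrays than on both 22 °C arrays in all 6 comparisons, which share the TUA1 values. The mean difference was 5.36 against TUB1, 4.28 against TUB6, 3.26 against TUB5 and 2.79 against TUB7. It was smaller against TUA6, at 1.52, and against TUB9, at 0.528. For TUB9 the 4 values were 0.193 and 0.334 at 4 °C and 0.158 and -0.686 at 22 °C, on A and B. The lowest 4 °C value and the 22 °C A value thus nearly coincided. TUB9 was also the tubulin most like TUA1 in its profile over the 4 arrays.

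**Figure D3:**
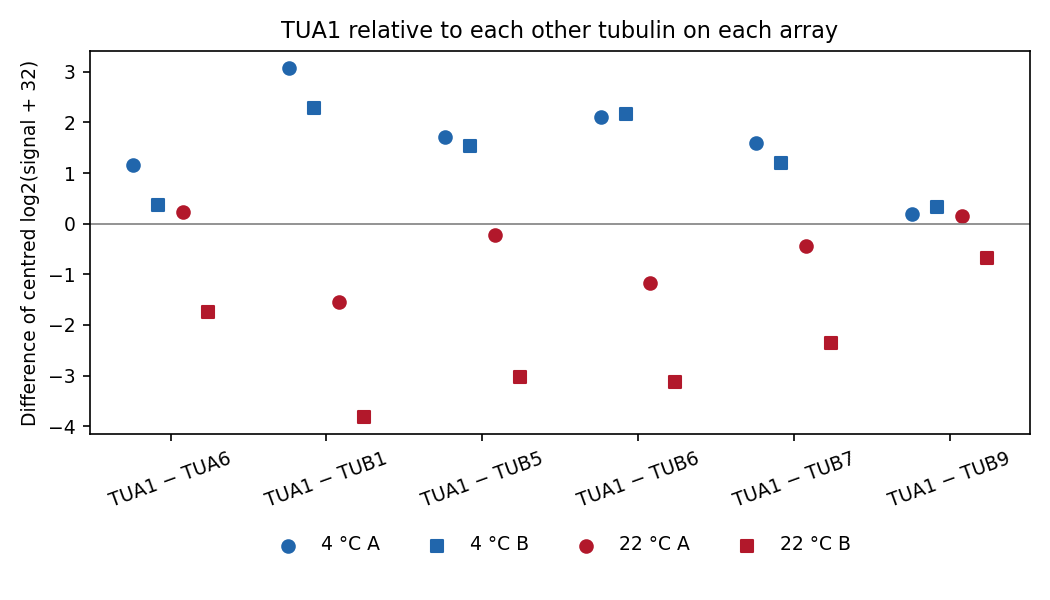
TUA1 less each other tubulin on each array, as differences of log2(signal + 32) centred on each gene's mean, with circles for replicate A and squares for replicate B. The blue 4 °C points lie above the red 22 °C points for every partner, from 3.07 and 2.29 against -1.54 and -3.82 for TUB1 to nearly level values for TUB9.

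The 22 °C replicates differed in each of the 7 measured tubulins. All 7 genes had a lower signal on 22 °C A than on 22 °C B, where 48% of all probe sets did, and 6 of 7 differed by over 2-fold in that direction on the log2(signal + 32) scale, against 19.5% of all probe sets. The median of A minus B was -2.63 over the tubulins and 0.0522 over all probe sets. The difference was -3.46 for TUB5, -2.94 for TUB1, -2.64 for TUA6, -2.63 for TUB6 and -2.59 for TUB7. For each of these 5 genes, at most 3.17% of all probe sets had a lower value. TUB9 had -1.51 and TUA1 -0.668, and 26.5% of all probe sets lay below TUA1.

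At 4 °C the same direction held in all 7 genes, where 53.3% of all probe sets had A below B, but the differences were smaller. Their median was -0.697, with the largest in TUA6 at -1.32 and TUB1 at -1.31 and the smallest in TUB9 at -0.379. With 1 array on each side, none of these replicate differences has a test. The letters A and B are not said to mark a shared batch. The ratio of the 3-prime to the 5-prime GAPDH control signal, a measure of RNA integrity and labelling, was 1.01 on 4 °C A, 0.639 on 4 °C B, 1.46 on 22 °C A and 0.680 on 22 °C B. At each temperature replicate A had the higher ratio, and its part in the tubulin values was not tested.

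**Figure D4:**
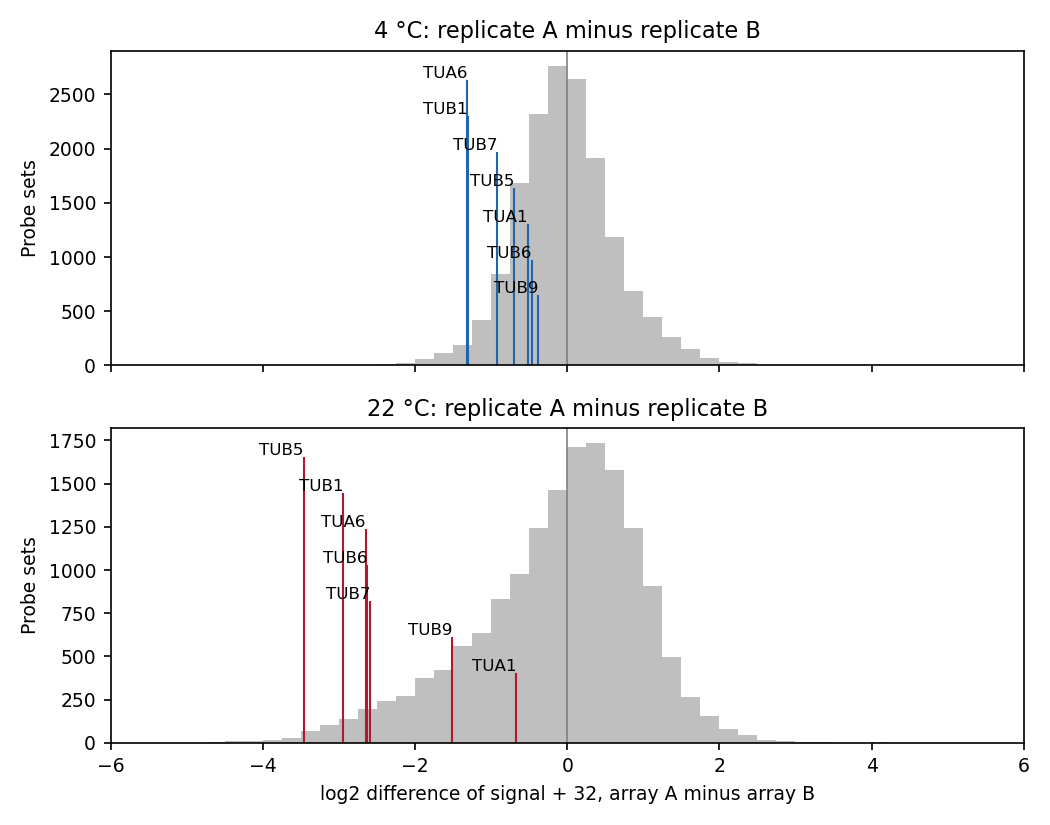
Log2 difference of signal + 32 between replicate A and replicate B at 4 °C (upper panel) and at 22 °C (lower panel), with each tubulin marked on the distribution over 15847 probe sets (grey, number of probe sets). All 7 tubulins lie left of 0 in both panels, from -0.379 to -1.32 at 4 °C and from -0.668 to -3.46 at 22 °C.

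Measured against the 4 °C arrays, the 22 °C arrays therefore gave different pictures. On 22 °C A, TUB1 and TUB6 were above both 4 °C arrays, by 2.70 and 1.79 on the log2 scale relative to the 4 °C mean. TUB5 and TUB7 were 0.342 and 0.308 above that mean, and TUA6, TUB9 and TUA1 were at -0.987, -1.41 and -1.52. On 22 °C B, 5 genes lay above both 4 °C arrays. Relative to the 4 °C mean, TUB1 was at 5.64, TUB6 at 4.41, TUB5 at 3.81, TUB7 at 2.90 and TUA6 at 1.66. TUB9 was at 0.0975 and TUA1 at -0.852. TUB1 and TUB6 were above and TUA1 was below the 4 °C arrays on both. Both sets of differences share the 4 °C arrays.

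**Figure D5:**
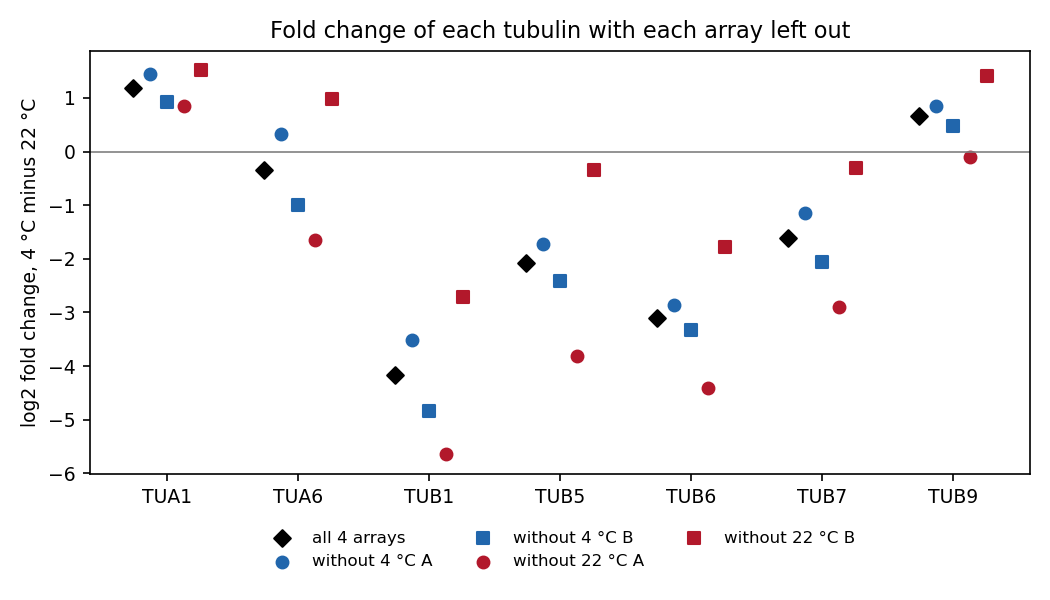
Log2 fold change, 4 °C minus 22 °C, of each tubulin gene with all 4 arrays (black) and with each array left out in turn. TUA1, TUB1, TUB5, TUB6 and TUB7 keep their sign, while TUA6 runs from -1.66 to 0.987 and TUB9 from -0.0975 to 1.41.

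The genes closest to TUB1 in pattern were sought by the distance between centred log2 signals over the 4 arrays. The search covered the 8656 other genes whose single-gene probe set passed the filter on low signal. Closest to TUB1 were AT4G18970, ATPMEPCRD and JAL34, a jacalin-related lectin, at distances of 0.410, 0.435 and 0.501. ATPMEPCRD had 10.4 and 52.4 at 4 °C (A and B), against 370.2 and 4039 at 22 °C (A and B). TUB6 came 40th in this order, TUB5 came 160th, TUB7 272nd, TUA6 1452nd, TUB9 5244th and TUA1 7148th. For TUA1 the closest were AT3G09200, AT2G25870 and AT5G13090, at 0.0311, 0.103 and 0.124, and TUB9 came 730th, ahead of the other tubulins. A profile of 4 arrays is short, and the likeness includes the difference between the 22 °C replicates.

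Other genes of the microtubule system were taken from lists written by locus, and few had a single-gene probe set. None of the 8 kept genes in the lists of nucleation, folding, microtubule-associated proteins and cellulose synthesis passed the limma test at an adjusted p of 0.05, where 5.05% of all probe sets did. At an unadjusted p under 0.05 there was 1 of 8, against 25.6% of all probe sets. This was ATMAP65-6, of the family that cross-links microtubules. It had 252.3 and 205.6 at 4 °C (A and B), against 429.2 and 1030 at 22 °C (A and B) (log2 fold change -1.43, limma adjusted p = 0.146). SPR1, a plus-end protein of cortical microtubules, had 1492 and 560.1 at 4 °C (A and B), against 2142 and 2574 at 22 °C (A and B) (-1.33, adjusted p = 0.197).

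Of the tubulin folding cofactors, POR had 191.8 and 244.8 at 4 °C (A and B), against 98.5 and 117.5 at 22 °C (A and B) (log2 fold change 0.833, limma adjusted p = 0.293). PFI had 147.0 and 164.9 at 4 °C (A and B), against 188.2 and 232.1 at 22 °C (A and B) (-0.362, adjusted p = 0.652). AT5G17410 and AT3G43610, in the list of nucleation genes, had log2 fold changes of -0.0635 and 0.413. COB, which is needed for oriented cellulose deposition, had 677.4 and 989.1 at 4 °C (A and B), against 1124 and 2306 at 22 °C (A and B) (-0.950, adjusted p = 0.315). TON1B, picked out after its values were seen, had the largest difference between the 22 °C replicates among the 8 genes, with A minus B at -1.58. AT5G17410 lay the other way, at 0.387. The other 6 lay between -1.2 and -0.196, and 7 of 8 thus had A below B, where 48% of all probe sets did. The actin gene ACT11, the 1 of 8 actins kept, had 47.4 and 83.4 at 4 °C (A and B), against 127.0 and 425.5 at 22 °C (A and B) (-1.49, adjusted p = 0.178).

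The markers of other organs rest on 1 measured gene each. The leaf gene LHCB4.1, the 1 measured of 6 leaf markers, had 289.8 and 214.9 at 4 °C (A and B), against 3717 and 3835 at 22 °C (A and B). It was called lower at 4 °C, like TUB1 (log2 fold change -3.76, limma adjusted p = 0.0279), while its 22 °C replicates had a log2 difference of -0.0447, with -2.94 for TUB1. Its part in the tubulin values was not tested. The pollen gene MGH3, the 1 measured of 8 pollen markers, had 72.0 and 85.4 at 4 °C (A and B), against 72.6 and 93.3 at 22 °C (A and B). Its log2 fold change was -0.0509, with that of TUA1 at 1.19. None of the 12 listed cell cycle genes had a single-gene probe set.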

How the data were processed

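The authors deposited a linear intensity for each probe set. The submitters' processing notes name MAS5 without a version. Background correction, presence calls and genome build were not given in the sources used here. Their 2% trimmed mean was equal on all arrays and was set to 500. The 64 control probe sets were left out, and probe sets with a mean scaled signal of at least 64 were kept. limma 3.58.1 in R 4.3.3 (lmFit, eBayes with trend) was fitted to log2(signal + 32) of all 4 arrays without covariates, which understates changes of low signals, with Benjamini-Hochberg adjustment over all kept probe sets and a threshold of 0.05. Intervals come from this fit.

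Groups came from titles and treatment labels. Symbols came from the platform annotation and the RefSeq table of TAIR10.1. A probe set paired with several tubulin genes was not used. The named genes were all tubulins, from each list the called genes or else up to 2 with the highest signal, and the 3 genes nearest in pattern to TUB1 and to TUA1. The members and lists were chosen with earlier results of these data known. The fit was tested only on simulated data with independent noise and with planted changes larger than those of the tubulins in the main fit. That test does not cover smaller changes or differences shared by many probe sets of an array. Alternatives were another pseudocount, filter, scaling or variance estimate, the replicate letter as a block, and each array left out. Precision is limited by the number of arrays. No sequence was used.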

Additional observations from a re-analysis of the deposited data

How the results depend on the processing

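With 2 arrays a group the calls follow the spread of single arrays. The 801 probe sets called became 226 with a pseudocount of 100, 2 with no filter, 1266 with a filter at 200 and 2879 with the replicate block, and 1 to 4142 with an array left out, where a lone array was assumed to vary like the other pair. The 1 tubulin called, TUB1, became 0 with a pseudocount of 100, with no filter, without trend and with robust estimation (limma adjusted p = 0.0749, 0.0924, 0.0541 and 0.0527). At these settings 1.43%, 0.00879%, 4.31% and 4.78% of all probe sets were called. The count became 2, with TUB6, at a pseudocount of 0, a filter at 200 and equal medians. There 6.52%, 11.2% and 7.45% of all probe sets were called. With the replicate block the count was 4 of 7 (TUB1, TUB5, TUB6 and TUB7), where 18.2% of all probe sets were called. The labels do not say that letters pair the arrays, and A minus B at 4 °C and A minus B at 22 °C had r = 0.209 over all probe sets. Leaving out an array gave 0 to 5 tubulins, with 26.1% of all probe sets called in the fit that gave 5, without 22 °C A. The median of all probe sets moved from -0.125 to 0.0316 after quantile normalization and 0.0221 with equal medians, and no tubulin changed sign under either. The median of the 7 tubulins ran from -2.90 to -0.308 with an array left out, that of beta genes from -3.81 to -0.342, that of alpha genes from -0.403 to 1.25, and TUA1 less the others from 1.84 to 4.20. TUA6 turned to 0.323 without 4 °C A and 0.987 without 22 °C B, within a range of -1.66 to 0.987, and TUB9 to -0.0975 without 22 °C A, within a range of -0.0975 to 1.41. The median 22 °C A minus B stayed between -2.73 and -2.44. A mean over the probe sets of a gene was not run, since each tubulin had 1. Causes were not tested.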
